A study of Mus musculus with 2 samples.

Results

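The nuclear factor I (NFI) family of the mouse consists of 4 genes, Nfia, Nfib, Nfic and Nfix, and open chromatin at these 4 of 21938 protein-coding genes was described in newborn midbrain. The genes were chosen by name, as the members of the family. The data were peaks of DNase I cleavage (DNase-seq, in which nuclei are cut with the nuclease and the ends of the released fragments are sequenced) from midbrain tissue of healthy mice of the strain B6NCrl at 0 days after birth, with males and females pooled. The labels give 1 group, made of biological replicates 1 and 2, without a second genotype, treatment, age or tissue. Both libraries trace to a single pooled donor entry of the strain and were made with a nuclei protocol whose name includes crosslinking, and the labels do not say whether the replicates came from different animals. The spread between the 2 libraries may therefore be technical, no test between conditions exists, and whole midbrain does not tell which cell types carried an open site.

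NFI proteins are transcription factors that bind DNA as dimers, with a shared DNA-binding domain at the amino terminus and more divergent carboxyl-terminal regions. Each subunit contacts one arm of a palindrome, the half-site TTGGC, and a full site consists of a half-site and its inverted copy separated by a short spacer. In the developing brain Nfia and Nfib are known for the switch of progenitors from making neurons to making astrocytes and oligodendrocytes, Nfix for the maturation and quiescence of neural stem cells, and Nfic mainly for tooth root formation, although it is expressed widely.

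Gene positions are those of GENCODE release M21 on the mouse assembly mm10. Nfia lies on the plus strand at chr4:97772734-98118874, Nfib on the minus strand at chr4:82290173-82705750, Nfic on the minus strand at chr10:81396186-81455635 and Nfix on the minus strand at chr8:84699876-84800344. The gene bodies span 346.1 kb, 415.6 kb, 59.5 kb and 100.5 kb in that order. The domain of a gene was its body with 50 kb on each side, and a peak was called a promoter peak when it came within 500 bp of an annotated transcription start site (TSS) of any transcript of the gene. Overlapping or touching peaks of the 2 libraries were merged into regions, and a region that held a peak of each library was called open in both. A region over 500 bp from every annotated TSS was called distal.

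The domains held 111 of the 74833 regions open in both libraries, and 14 of them are printed here from the RefSeq copy of the assembly (GRCm38.p6), each on the strand of its Nfi gene, 5′ to 3′. Capitals mark the 6-base NFI half-site TTGGCA in either orientation, so that it also appears as TGCCAA. The first sequences lie at or near annotated transcript starts, which at Nfib, Nfic and Nfix are not the most upstream ones. Each is a region open in both libraries that touches no exon. For Nfic the region shown is the open one nearest to its promoter that touches no exon, 594 bp downstream of the start of the transcript Nfic-204.
Nfia promoter, chr4:97772256-97772405, plus strand: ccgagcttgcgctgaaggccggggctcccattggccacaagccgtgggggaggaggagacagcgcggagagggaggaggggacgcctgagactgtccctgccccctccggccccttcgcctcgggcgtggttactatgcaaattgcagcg
Nfib promoter, chr4:82506036-82506265, minus strand: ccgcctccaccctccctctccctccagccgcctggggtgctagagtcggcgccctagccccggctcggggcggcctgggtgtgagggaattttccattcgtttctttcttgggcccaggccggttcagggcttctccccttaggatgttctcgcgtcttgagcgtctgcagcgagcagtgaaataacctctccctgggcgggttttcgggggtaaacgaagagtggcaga
Nfic first intron, chr10:81430336-81430485, minus strand: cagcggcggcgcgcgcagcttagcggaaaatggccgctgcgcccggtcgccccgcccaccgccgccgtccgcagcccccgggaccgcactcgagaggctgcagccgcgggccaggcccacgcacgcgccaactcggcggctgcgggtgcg
Nfix internal promoter, chr8:84774476-84774645, minus strand: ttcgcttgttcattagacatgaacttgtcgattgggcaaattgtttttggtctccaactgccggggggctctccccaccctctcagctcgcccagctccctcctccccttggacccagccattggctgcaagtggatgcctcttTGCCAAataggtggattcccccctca
The strongest distal region of each domain follows, ranked by the mean of its signal percentiles in the 2 libraries.
Nfia intron, chr4:97773256-97773425, plus strand: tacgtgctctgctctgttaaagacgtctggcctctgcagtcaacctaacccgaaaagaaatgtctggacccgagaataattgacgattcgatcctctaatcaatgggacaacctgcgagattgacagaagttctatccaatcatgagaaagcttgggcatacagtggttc
Nfib intron, chr4:82513216-82513365, minus strand: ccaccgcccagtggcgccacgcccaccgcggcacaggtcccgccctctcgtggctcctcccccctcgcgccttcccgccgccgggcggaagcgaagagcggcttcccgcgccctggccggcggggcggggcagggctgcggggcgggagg
Nfic intron, chr10:81432976-81433145, minus strand: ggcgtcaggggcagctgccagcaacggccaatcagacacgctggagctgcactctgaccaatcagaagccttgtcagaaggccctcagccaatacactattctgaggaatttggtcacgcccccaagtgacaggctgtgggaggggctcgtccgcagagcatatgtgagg
Nfix downstream flank, chr8:84663996-84664165, minus strand: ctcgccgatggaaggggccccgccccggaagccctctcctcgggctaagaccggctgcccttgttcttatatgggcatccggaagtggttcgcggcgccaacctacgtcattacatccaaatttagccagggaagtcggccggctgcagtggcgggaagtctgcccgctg
The last sequences are distal regions that hold the half-site, including all 4 with 3 copies of it.
Nfib intron, first copy, chr4:82494956-82495125, minus strand: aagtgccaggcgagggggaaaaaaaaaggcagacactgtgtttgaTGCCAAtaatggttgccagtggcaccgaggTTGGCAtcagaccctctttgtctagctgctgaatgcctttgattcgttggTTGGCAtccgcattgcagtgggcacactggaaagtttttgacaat
Nfib intron, second copy, chr4:82495736-82495905, minus strand: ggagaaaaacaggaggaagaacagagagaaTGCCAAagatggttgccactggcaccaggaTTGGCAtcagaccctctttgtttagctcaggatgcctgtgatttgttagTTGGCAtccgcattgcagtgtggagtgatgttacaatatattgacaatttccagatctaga
Nfib intron, far downstream of the main promoter, chr4:82400116-82400265, minus strand: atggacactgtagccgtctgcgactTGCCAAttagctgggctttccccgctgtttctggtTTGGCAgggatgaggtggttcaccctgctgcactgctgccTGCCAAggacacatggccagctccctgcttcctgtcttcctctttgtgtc
Nfia intron, 3 half-sites, chr4:97923996-97924185, plus strand: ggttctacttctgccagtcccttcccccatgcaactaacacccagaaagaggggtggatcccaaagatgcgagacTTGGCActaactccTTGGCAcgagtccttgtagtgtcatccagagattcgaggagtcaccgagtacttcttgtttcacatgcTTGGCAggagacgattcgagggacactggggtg
Nfia intron, 2 half-sites, chr4:97868976-97869145, plus strand: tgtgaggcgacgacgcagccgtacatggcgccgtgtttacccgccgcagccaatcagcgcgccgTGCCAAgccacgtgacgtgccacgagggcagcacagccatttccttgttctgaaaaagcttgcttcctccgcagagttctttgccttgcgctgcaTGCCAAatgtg
Nfix upstream flank, chr8:84810996-84811165, minus strand: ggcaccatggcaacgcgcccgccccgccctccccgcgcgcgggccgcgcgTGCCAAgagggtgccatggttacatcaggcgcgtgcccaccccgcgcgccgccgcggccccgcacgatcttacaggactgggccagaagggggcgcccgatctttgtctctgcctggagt

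Replicate 1 had 228203 usable peaks of 150 bp and replicate 2 had 122593. The authors' signal, a whole number per peak without a stated definition and not scaled between libraries, had an interquartile range of 32 to 66 (median 44) in replicate 1 and of 12 to 29 (median 18) in replicate 2. Sequencing depth is unknown. Signals are therefore given for each library, with the percentile of the peak in its own list (the share of the library's peaks with the same or a lower signal). A promoter peak in both libraries, which 61.0% of all protein-coding genes had, was looked for at marker genes. Among these, 6 of 6 neuronal genes and 3 of 6 midbrain patterning genes (En1, En2 and Otx2) had one. Of the other patterning genes, Pax7 had a peak of 41 in replicate 1 alone, and Lmx1b and Foxa2 had none in either library. The count was 0 of 5 microglial, 0 of 4 erythroid, 0 of 4 liver, 0 of 5 posterior Hox and 1 of 4 endothelial genes. In replicate 1 alone, 2 of the microglial and 3 of the posterior Hox genes had a promoter peak.

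All 4 Nfi genes had a promoter peak in both libraries. Among all protein-coding genes the share was 61.0% (13391 of 21938), with 68.9% in replicate 1 and 62.6% in replicate 2, so 4 of 4 is the state of most genes and does not set the family apart. The call depended on the overlap and on the window: Nfib lost its shared promoter region when the overlap had to cover 50% of both peaks, and Nfix lost its own when the window was 100 bp. Nfib also lost it when a dense row of replicate 2 peaks, described further on, was left out, since its main promoter lies in that row. The strength of the promoters differed among the genes, taking the strongest promoter peak of each library, which need not be the same site. The strongest Nfia promoter peak had a signal of 132 in replicate 1 (percentile 98.7) and 53 in replicate 2 (92.9). Nfix followed with 127 in replicate 1 (98.0) but 36 in replicate 2 (82.7), and Nfic with 98 (92.3) and 39 (85.1). Nfib was lowest in both libraries, with 89 (89.0) and 26 (71.2). Nfic and Nfix thus exchanged places between the libraries, and Nfia was highest and Nfib lowest in each. All protein-coding genes were also ranked by their strongest promoter peak, with the genes without a promoter peak ranked lowest. Nfia stood at percentile 86.1 in replicate 1 and 67.6 in replicate 2, and Nfib at 50.3 and 46.4. Since 68.9% of the genes had a promoter peak in replicate 1 and 62.6% in replicate 2, Nfib stood low among the genes with one. Nfia stood near the middle of those genes in replicate 2.

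The genes have 31 annotated start sites, which fall into 18 separate promoters. They are numbered here within each gene in the direction of transcription. Replicate 1 had a peak at 16 of them and replicate 2 at 6, and all 6 of these were open in both libraries. Neither library had a peak at 2 promoters, both of Nfic. At Nfia, Nfic and Nfix the promoter that starts the most protein-coding transcripts was not the one with the strongest peak, and at Nfib it was. The like shares over the separate promoters of all genes were not computed, so whether these counts are usual is not known here.

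**Figure D1:**
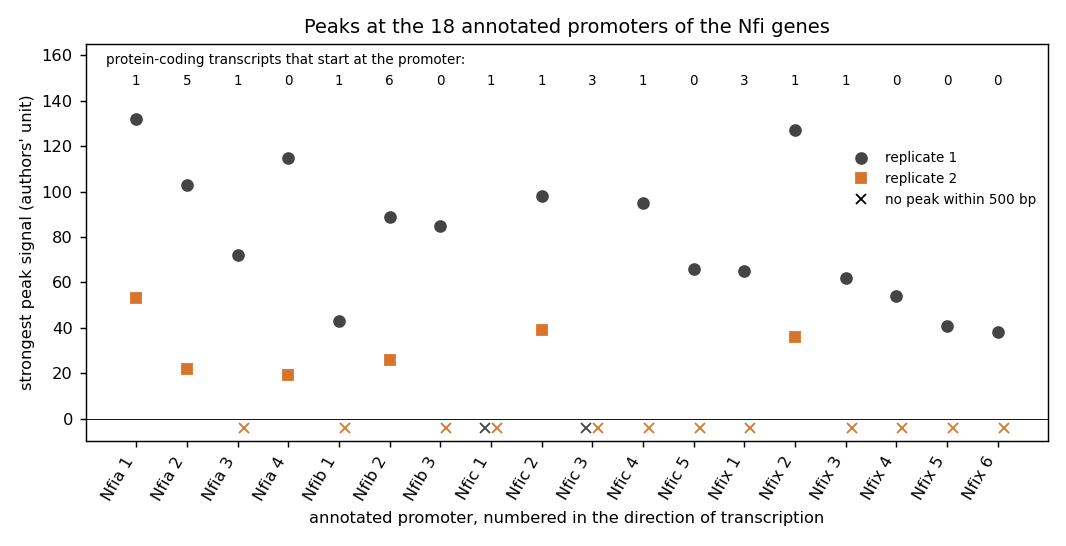
Strongest peak signal within 500 bp of each of the 18 annotated promoters, in the authors' unscaled unit, for replicate 1 (circles) and replicate 2 (squares); crosses below the axis mark promoters without a peak in that library, and the numbers at the top count the protein-coding transcripts that start there. Replicate 2 points appear at 6 promoters, 3 of Nfia and 1 of each other gene.

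At Nfia the most upstream promoter, at position 97772734, starts 1 coding transcript (Nfia-208) and carried the strongest peaks of the family, 132 and 53. The promoter 4.87 kb downstream of it starts 5 coding transcripts between positions 97777608 and 97777834. Its peaks were weaker, with a signal of 103 in replicate 1 (percentile 93.7) and 22 in replicate 2 (63.5). The window lies in a CpG-rich stretch, with an observed-to-expected CpG ratio of 0.94 over 1 kb, and the peak also lies within 500 bp of the start of E130114P18Rik, a gene transcribed in the opposite direction, so the signal cannot be assigned to one of them. Another promoter open in both libraries starts a noncoding transcript (Nfia-206) inside the gene, where the region open in both had signals of 115 and 15 and a replicate 2 peak of 19 beside it had no partner. The remaining one, for Nfia-207, had a peak of 72 in replicate 1 and none in replicate 2.

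At Nfib, 10 transcripts, 6 of them coding, start between positions 82505308 and 82505779, which is 200 kb inside the gene as annotated. This main promoter held 2 regions open in both libraries, chr4:82505276-82505545 with signals of 85 and 26 and chr4:82506036-82506265 with 80 and 18. Its strongest replicate 1 peak, of 89, lies between them and had no partner in replicate 2. The most upstream start, at position 82705750, belongs to 1 coding transcript (Nfib-212). It had a highest signal of 43 in replicate 1, just under the median of that list, and no peak in replicate 2. The noncoding start at 82499316 had a signal of 85 in replicate 1 and none in replicate 2. The 200 kb upstream of the main promoter belong to the annotated gene through Nfib-212 alone.

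At Nfic the promoter open in both libraries starts Nfic-204 at position 81431005, with signals of 98 and 39. The promoter 3.82 kb downstream of it, between positions 81427114 and 81427187, starts 3 coding transcripts (Nfic-201, Nfic-202 and Nfic-203) and had no peak in either library. The most upstream start, of Nfic-207, had none either. Internal starts 19.5 kb and 26.6 kb downstream of the 3-transcript promoter had peaks of 95 and 66 in replicate 1 and none in replicate 2.

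At Nfix an internal promoter had the strongest peaks. The most upstream promoter, between positions 84800024 and 84800344, starts 3 coding transcripts (Nfix-201, Nfix-202 and Nfix-205), and it had a peak of 65 in replicate 1 (percentile 74.8) and none in replicate 2. Its sequence is rich in G and C, at 80.7% over 1 kb, with a CpG ratio of 1.12. The promoter of Nfix-203, 26.0 kb inside the gene at position 84774369, held 2 regions open in both libraries, chr8:84773976-84774145 with signals of 127 and 29 and chr8:84774476-84774645 with 102 and 36, and had a lower CpG ratio of 0.42. A start 0.97 kb further on (Nfix-204) had 62 in replicate 1 and none in replicate 2, and 3 noncoding starts near the end of the gene had 38 to 54 in replicate 1 alone. Whether base composition bears on the missing replicate 2 peak at the first promoter was not tested.

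The 4 domains held 386 regions in all. Of these, 111 were open in both libraries, 194 in replicate 1 alone and 81 in replicate 2 alone. The regions open in both divided into 9 at the genes' own promoters, 16 at promoters of neighbouring genes and 86 distal ones. Of the distal regions, 64 lay in introns of the Nfi gene itself, 1 in an exon, 17 in the upstream flank and 4 in the downstream flank. The distal share was 77.5% of the regions open in both, against 68.1% across the genome. Regions away from promoters but inside the gene made up 32 of 35 at Nfib and 11 of 20 at Nfia, and fewer of those at Nfic (7 of 23) and Nfix (15 of 33).

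**Figure D2:**
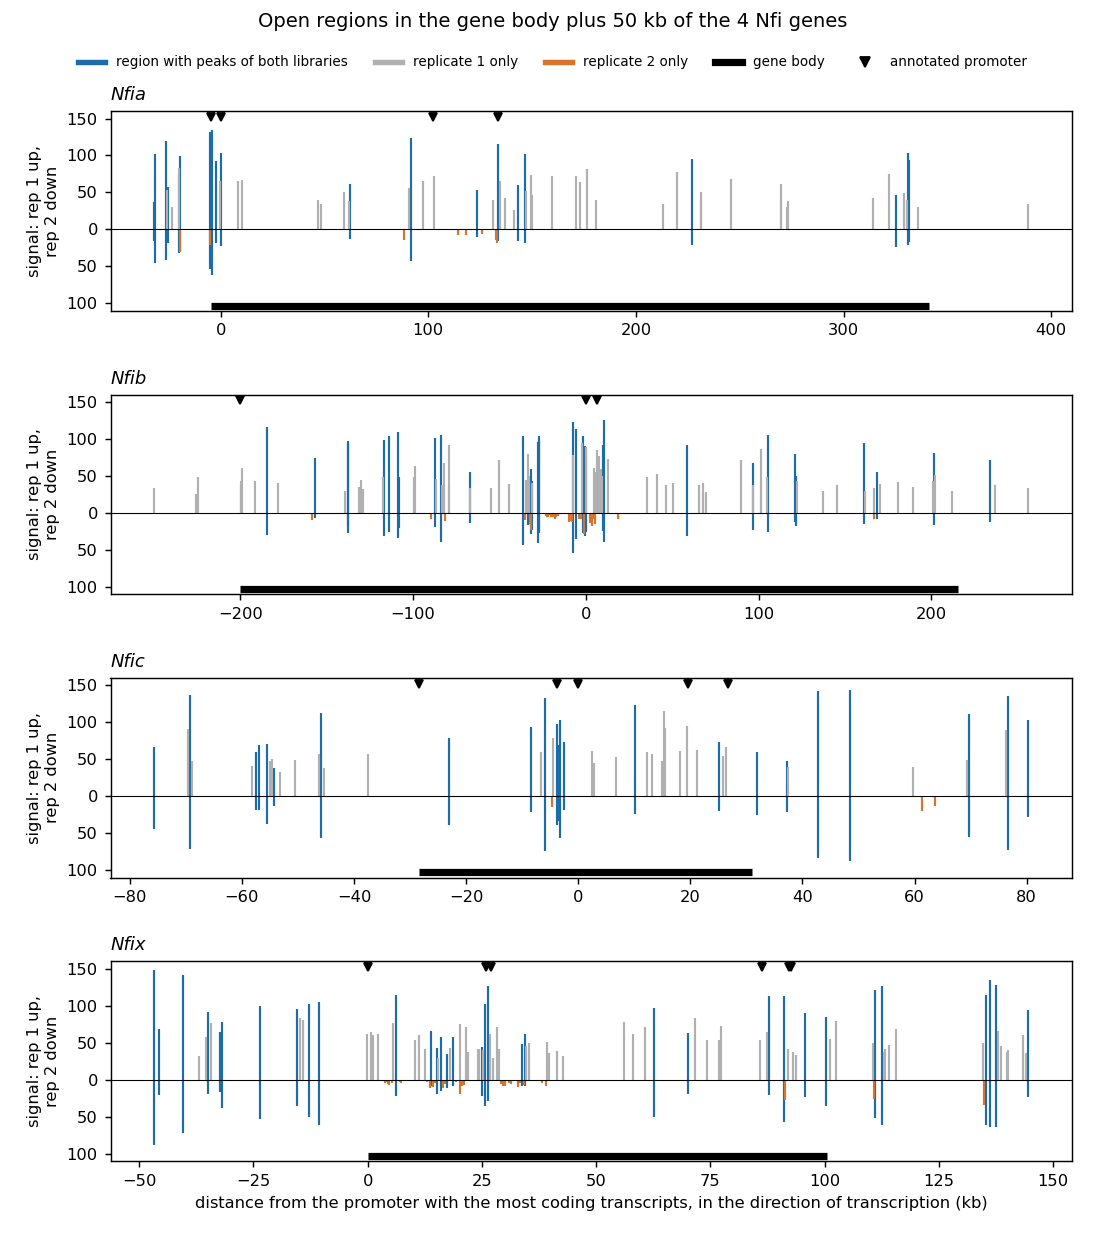
Regions along the 4 gene domains, by distance in kb from the promoter with the most coding transcripts, with the authors' signal drawn upward for replicate 1 and downward for replicate 2; the bar below is the gene body and triangles are annotated promoters. Regions open in both libraries (blue) number 20 at Nfia, 35 at Nfib, 23 at Nfic and 33 at Nfix, and short replicate 2 bars crowd near the main promoter of Nfib and inside Nfix.

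Nfix, the gene tied to neural stem cell maturation, had the densest distal open chromatin of the family. Its domain held 25 distal regions open in both libraries, or 12.5 per 100 kb, a density that 0.547% of the 21938 protein-coding genes reached or passed. Nfic followed with 12 regions, 7.53 per 100 kb (6.06% of genes at or above), then Nfib with 33, 6.40 per 100 kb (10.4%), and Nfia with 16, 3.59 per 100 kb (34.3%). The median over all protein-coding genes was 2.53 per 100 kb and the upper quartile 4.42. Nfia, one of the principal gliogenic factors of the family, lay between those values, and the other 3 genes lay above the upper quartile.

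The density of Nfix depended in part on rows of weak replicate 2 peaks, described further on. With these rows left out, its domain held 18 distal regions open in both libraries, 8.98 per 100 kb (2.23% of genes at or above), and that of Nfib 29, 5.62 per 100 kb (14.0%). Nfia and Nfic kept 16 and 12, and the order of the 4 genes was as before.

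All peaks of each library, promoters included, ranked the genes in the same order. In replicate 1 the peaks per 100 kb were 46.9 for Nfix, 32.6 for Nfic, 20.8 for Nfib and 13.4 for Nfia, against a median of 12.02 over all protein-coding genes. In replicate 2 they were 32.9, 18.2, 16.1 and 6.95, against 7.19. Nfia was above the median in replicate 1 and just below it in replicate 2. Without the rows the replicate 2 values were 19.95 for Nfix, 18.2 for Nfic, 7.56 for Nfib and 6.95 for Nfia, against a median of 7.03, so that Nfib fell from well above the median to near it.

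The flanks of the shorter genes contain other genes, and the gene bodies alone were therefore compared as well, among the 5007 protein-coding genes of 50 kb or more. Distal regions open in both libraries numbered 15 in the Nfix body, or 14.9 per 100 kb, which 0.180% of these genes reached or passed. The Nfic body held 7 (11.8 per 100 kb, 0.579%), the Nfib body 32 (7.70, 4.03%) and the Nfia body 11 (3.18, 30.9%). The median of long genes was 1.92. The rows lie inside the bodies of Nfib and Nfix and were included here. With them the order was that of the domains, and Nfib, the longest gene, held the most regions. Leaving out the rows took the Nfix domain from 25 to 18 distal regions, a loss that fell inside the body. The body values without the rows were not computed, so the place of Nfix above Nfic in this comparison was not shown apart from them.

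**Figure D3:**
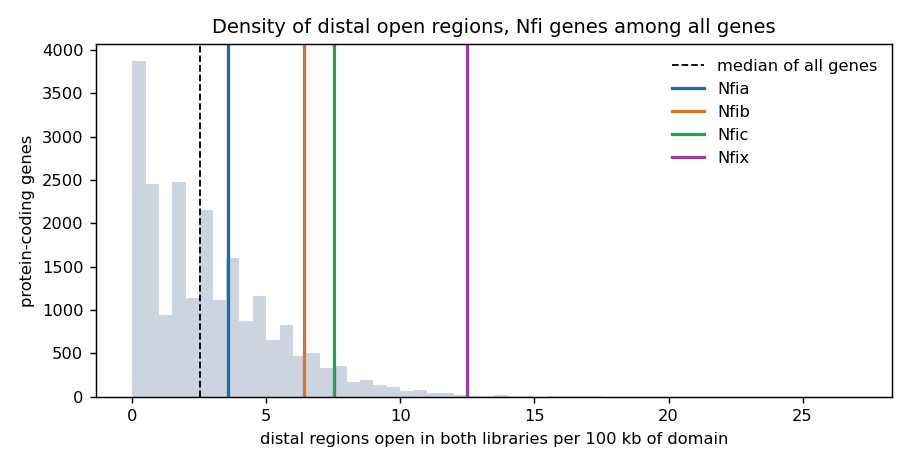
Histogram of the density of distal regions open in both libraries over the domains of 21938 protein-coding genes, in regions per 100 kb, with the median as a dashed line and the 4 Nfi genes as coloured lines. Nfia (3.59) stands just right of the median and Nfix (12.5) in the far upper tail.

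The distal regions of Nfia and Nfib were strong in replicate 1 and near the genome's median in replicate 2. Over all 50993 distal regions open in both libraries, the median signal was 67 in replicate 1 (upper quartile 85) and 22 in replicate 2 (upper quartile 32). At Nfia it was 94.5 (range 37 to 135) and 20 (10 to 62), and at Nfib 94 (39 to 125) and 26 (7 to 55). At Nfic it was 74 (38 to 133) and 22.5 (13 to 74), and at Nfix 85 (35 to 135) and 22 (8 to 64). In replicate 1 the medians of Nfia and Nfib were above the genome's upper quartile, that of Nfix was equal to it and that of Nfic lay between median and quartile, and the replicate 2 medians ran from 2 below it to 4 above. Within each domain the signals of both libraries ranked the distal regions alike, with a Spearman rho of 0.73 over 16 regions at Nfia, 0.69 over 33 at Nfib, 0.60 over 12 at Nfic and 0.76 over 25 at Nfix. These correlations run across regions of the same pair of libraries and are descriptions only.

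The strongest distal region of the Nfia domain, at chr4:97773256-97773425, lies in an intron 607 bp downstream of the most upstream start. It had a signal of 135 in replicate 1 and 62 in replicate 2, percentiles 99.1 and 95.9, which is higher in both libraries than any Nfia promoter. The next, at chr4:97868976-97869145, lies 91.5 kb downstream of the main promoter, with 124 and 43, and holds 2 half-sites. The other 3 of the top 5, at chr4:97751116-97751265 (119 and 42), chr4:97745896-97746085 (102 and 45) and chr4:97758156-97758325 (99 and 31), all lie upstream of Nfia within the body of E130114P18Rik. That gene runs in the opposite direction across the start of Nfia, and the strongest of the 5 lies inside both genes.

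All 5 leading distal regions of Nfib are intronic. The one at chr4:82513216-82513365, 7.51 kb upstream of the main promoter, had 123 in replicate 1 and 55 in replicate 2, and the one at chr4:82494956-82495125, 10.7 kb downstream of it, had 125 and 40. Both exceeded the main promoter's 89 and 26 in each library. The others lie upstream of the main promoter at distances of 27.7 kb (chr4:82533356-82533505, 96 and 41), 36.5 kb (chr4:82542236-82542385, 104 and 44) and 83.9 kb (chr4:82589596-82589785, 105 and 40). Of the 5, 3 also lie inside Gm11266, a gene annotated across this stretch of the locus.

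In the Nfic domain the region at chr10:81432976-81433145, in an intron 2056 bp upstream of the start of Nfic-204, had 133 in replicate 1 and 74 in replicate 2, percentiles of 98.9 and 98.8. It was the strongest distal region of the 4 domains in replicate 2. The region at chr10:81430336-81430485 had 103 and 56, and chr10:81450236-81450425 had 79 and 39. An intronic region of 350 bp at chr10:81416916-81417265 was strong in replicate 1 at 123 and much lower in its list in replicate 2 at 24 (percentiles 97.4 and 67.7). The last of the 5, at chr10:81502756-81502925 (67 and 44), lies in the neighbouring gene Gna15.

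In the Nfix domain the strongest distal region, at chr8:84663996-84664165, had 135 and 64 but lies in the downstream flank, 136 kb from the first Nfix promoter and 1.05 kb from the nearest annotated start, that of Gm26664. It also lies beside the start of the protein-coding neighbour Ier2, at position 84662852, whose promoter was open in both libraries with 128 and 64. Which gene the region belongs to was not tested. Inside the Nfix gene the strongest was chr8:84709256-84709445, 90.99 kb downstream of the first promoter, with 113 and 57. Upstream of the gene, regions 10.7 kb (chr8:84810996-84811165, 105 and 62), 12.9 kb (chr8:84813156-84813325, 102 and 50) and 23.5 kb (chr8:84823776-84823925, 100 and 53) from its start followed. The last of these lies 1.03 kb from the start of Dand5, a gene without a promoter peak in either library. All 5 exceeded the strongest Nfix promoter peak in replicate 2 (36), and the first alone exceeded it in replicate 1 (127).

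Of 21 protein-coding neighbours with a start in a domain, 14 had a promoter peak in both libraries (66.7%), near the 61.0% of all protein-coding genes. They were 1 of 1 at Nfia, 8 of 11 at Nfic and 5 of 9 at Nfix, while Nfib has no such neighbour. The 1 at Nfia, E130114P18Rik, was counted through the region at the main Nfia promoter (103 and 22). The 14 are therefore not all separate from the Nfi promoters. At Nfic the strongest was Fzr1, an activator of the anaphase-promoting complex, with 144 and 87, and Dohh and Gm48551 shared a region with 143 and 84. At Nfix it was Calr, which encodes the calcium-binding chaperone calreticulin, with 148 and 88. Each of these exceeded the promoter of its Nfi neighbour in both libraries. Lyl1, a transcription factor of the blood lineage that lies inside the Nfix gene body, had no promoter peak in either library.

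The second question was how far the libraries found the same sites at these genes. Across the genome, 64.6% of replicate 2 peaks overlapped a replicate 1 peak by at least 1 bp, and 33.5% of replicate 1 peaks overlapped one of replicate 2, the list of replicate 1 being 1.86 times as long. In the 4 Nfi domains together, 118 of 209 replicate 2 peaks did, 56.5% (95% Wilson interval 49.7 to 63.0), and 114 of 313 replicate 1 peaks, 36.4% (31.3 to 41.9). The share of replicate 2 was thus below the genome's value and that of replicate 1 slightly above it. With the rows of replicate 2 peaks described next left out, the direction turned: 103 of 139 peaks overlapped, 74.1% (66.2 to 80.7), against 67.2% of the genome's peaks outside rows.

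The genes did not behave alike in this respect. At Nfic 24 of 29 replicate 2 peaks overlapped, 82.8% (65.5 to 92.4), and at Nfia 23 of 31, 74.2% (56.8 to 86.3). At Nfix it was 33 of 66, 50% (38.3 to 61.7), and at Nfib 38 of 83, 45.8% (35.5 to 56.5). Nfia and Nfic lay above the genome's share and Nfib and Nfix below it, with intervals that cover counting error only. From the side of replicate 1 the genes were closer together, at 33.3% for Nfia, 35.5% for Nfib, 44.2% for Nfic and 35.1% for Nfix.

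Many of the unmatched replicate 2 peaks of Nfib and Nfix stood in dense rows. A row was defined, after these values had been seen, as 10 or more replicate 2 peaks whose successive starts were at most 2.5 kb apart. Genome-wide 7.10% of replicate 2 peaks (8705 of 122593, in 499 rows) stood in such rows. At Nfib 44 of 83 did (53.0%) and at Nfix 26 of 66 (39.4%), in 2 rows each, while Nfia and Nfic had none. In the rows of Nfib 8 of the 44 peaks overlapped a replicate 1 peak (18.2%), and outside them 30 of 39 did (76.9%). At Nfix the numbers were 7 of 26 (26.9%) and 26 of 40 (65.0%). Rows across the genome showed the same difference, with an overlap of 29.7% inside them and 67.2% outside. The median signal of replicate 2 peaks was 10 in the genome's rows against 18 outside, and 7.5 and 8 in the rows of Nfib and Nfix against 21 and 25 outside.

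**Figure D4:**
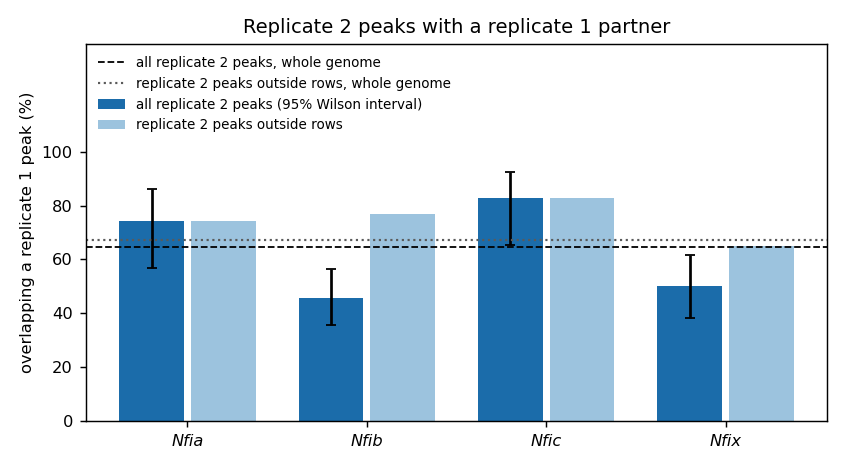
Percentage of replicate 2 peaks that overlap a replicate 1 peak in each Nfi domain: dark bars are all peaks with 95% Wilson intervals, light bars are the peaks outside rows, and the lines are the genome's shares of all peaks (dashed, 64.6%) and of peaks outside rows (dotted, 67.2%). The dark bars of Nfib (45.8%) and Nfix (50%) end below the dashed line, and among the light bars Nfib (76.9%) ends above the dotted line and Nfix (65.0%) just below it.

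The 4 rows differed from one another. The longer row of Nfib, chr4:82500376-82515885, spans 15.5 kb around the main promoter with 26 replicate 2 peaks of signal 4 to 55. Replicate 1 had 10 peaks there with a median of 90, and 8 of the 26 overlapped one. The other Nfib row, chr4:82521616-82529105, holds 18 replicate 2 peaks with signals of 2 to 8 (median 4) over 7.49 kb, 15.8 to 23.3 kb upstream of the main promoter. Replicate 1 had no peak in it at all. At Nfix the row at chr8:84779296-84787485 holds 16 replicate 2 peaks (3 to 19) and 8 replicate 1 peaks, 5 of the 16 overlapping, and the row at chr8:84765876-84771185 holds 10 (4 to 10) and 2 replicate 1 peaks, 2 of the 10 overlapping. The GC content was 45.7% in the longer Nfib row and 41.9% in the other, against 41.9% in the Nfib domain. At Nfix it was 52.4% in the row of 16 peaks and 51.1% in the row of 10, against 51.2% in the domain.

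**Figure D5:**
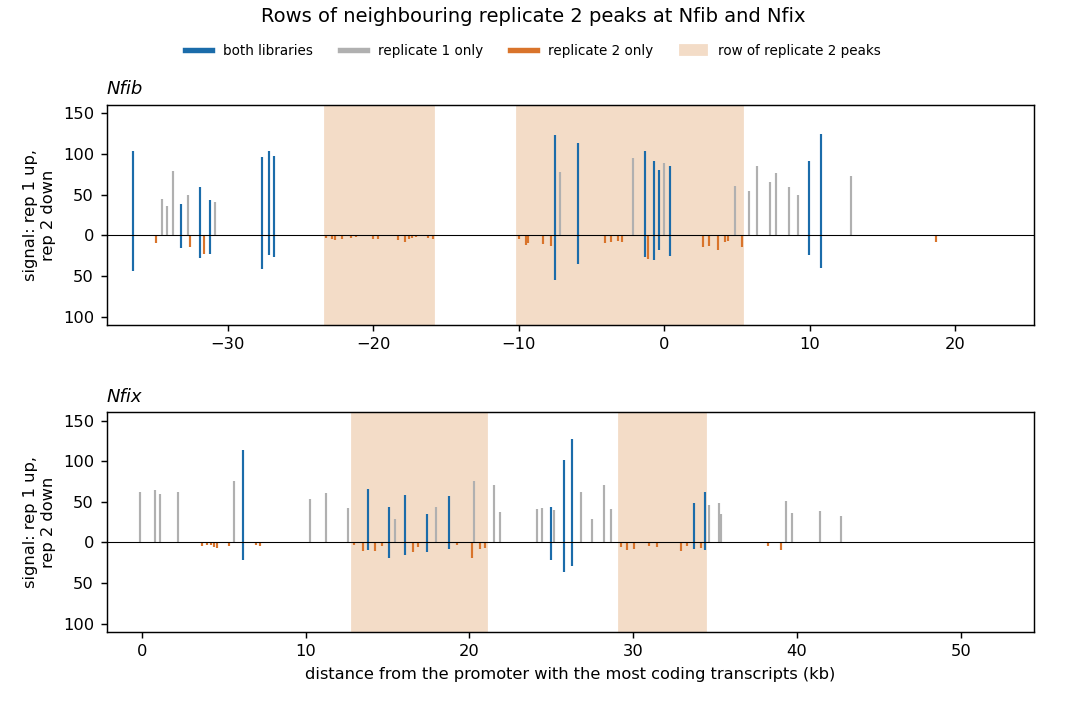
Peak signals around the rows at Nfib and Nfix against the distance in kb from the promoter with the most coding transcripts, drawn upward for replicate 1 and downward for replicate 2, with the rows shaded. In the Nfib row 15.8 to 23.3 kb upstream, 18 replicate 2 peaks of signal 2 to 8 stand where replicate 1 has none.

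Regions with a peak of 1 library alone were weaker than the shared ones, though not all were weak. In replicate 1 their median signal was 43 to 57 in the 4 domains, against 94 to 97 for the regions open in both, and in replicate 2 it was 6 to 14 against 21 to 38. The strongest distal peaks of replicate 1 without a partner were 115 at Nfic (chr10:81411816-81411965, percentile 96.2), 92 at Nfib (chr4:82584676-82584825), 84 at Nfix (chr8:84815156-84815305) and 82 at Nfia (chr4:97953996-97954145). The strongest of replicate 2 were 31 at Nfia (chr4:97757936-97758085, percentile 77.8), 29 at Nfib (chr4:82506796-82506945), 28 at Nfix (chr8:84708876-84709025) and 14 at Nfic (chr10:81431756-81431945). The second of each gene was 92 at Nfic, 86 at Nfib, 83 at Nfix and 77 at Nfia in replicate 1, and 13, 23, 19 and 14 in replicate 2. The second one of Nfib in replicate 1, at chr4:82404416-82404565 in an intron, holds 4 half-sites of NFI. Since the list of replicate 2 is shorter, a replicate 1 peak without a partner does not show that the site was closed in the other library.

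The wider intervals called hotspots were compared in the same way. The authors' hotspots numbered 283 in the domains in replicate 1 and 184 in replicate 2, of which 38.5% and 65.8% overlapped one of the other library, against 33.5% and 72.0% across the genome. The most extended ones were those of Nfib, at 2169 and 2277 bp, and of Nfix in replicate 2, at 2289 bp.

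The sequences were searched on both strands for the site that NFI proteins bind. The full site, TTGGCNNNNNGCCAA, was in 0 of the 86 distal regions of the Nfi domains and in 0 of all 111 regions open in both, and 79 of 50993 distal regions genome-wide held it (0.155%), a share too low for 86 regions to show a difference. The half-site TTGGCA was in 23 of the 86 (26.7%), against 16.6% of all distal regions open in both libraries. It was in 12 of 33 regions at Nfib, 5 of 25 at Nfix, 4 of 16 at Nfia and 2 of 12 at Nfic. The Nfi regions had a median width of 190 bp against 170 bp genome-wide, and whether width bears on the half-site share was not tested. A full site holds this half-site only where its spacer begins with A or ends with T.

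Regions with several half-sites lay at Nfib and Nfia. At least 3 half-sites were found in 4 of the 86 distal regions (4.65%) and in 0.198% of the 50993 genome-wide, a count that was made after the regions had been read. Of the 4, 3 are in introns of Nfib (chr4:82400116-82400265, chr4:82494956-82495125 and chr4:82495736-82495905) and 1 in an intron of Nfia (chr4:97923996-97924185). Their signals were 105, 125, 92 and 102 in replicate 1 and 26, 40, 24 and 18 in replicate 2.

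The neighbouring pair of these Nfib regions are near copies of each other, so they are not separate examples. They are printed above as the first and second copy, lie 610 bp apart, and align over 102 columns with 90 identities (88.2%), 9 mismatches and 3 gaps. All 3 half-sites of one copy align with those of the other. This was the highest local alignment score among all 3655 pairs of the 86 distal regions, and the next highest joined a region of Nfia with one of Nfix over 86 columns at 86.0% identity. Both copies were open in both libraries, with signals of 125 and 92 in replicate 1 and 40 and 24 in replicate 2. Counted once, the regions with 3 half-sites stem from 3 different sequences. Whether reads were shared between the copies was not tested.

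Other short motifs were searched in the same way and none was tested. The GC box GGGCGG was in 16 of the 86 distal regions (18.6%) against 8.00% of all distal regions open in both libraries. Of all promoter regions open in both libraries 45.6% held it, and some distal regions of the Nfi domains lie just past the 500 bp limit. Whether nearness to a start bears on the GC box count was not tested. Of the 86 distal regions, the SOX motif ACAAAG was in 20 (23.3%) against 17.0%, and the CTCF core CCNNNAGNNGGC in 15 (17.4%) against 22.0%. The other SOX motif, AACAAT, was in 8 (9.30%) against 8.14%, and the E-box CAGCTG in 14 (16.3%) against 17.1%. The homeobox motif TAATTA was in 4 (4.65%) against 5.30%, and the AP-1 motif TGANTCA in 2 (2.33%) against 5.90%. The POU motif ATTTGCAT and the CRE TGACGTCA were in 0, against 1.40% and 0.398%. These are matches of letters and not sites of binding.

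Genes tied to NFI factors by their known biology were examined at their promoters. Of 14 partners and astroglial targets, 11 had a promoter peak in both libraries (14 in replicate 1 and 12 in replicate 2), against 61.0% of all protein-coding genes. They included Aldoc (103 and 29), Apcdd1 (107 and 44), Fabp7, the fatty acid-binding protein of radial glia (108 and 42), and Gfap, the intermediate filament of astrocytes (108 and 46). The 3 without a shared region were Aldh1l1 (80 in replicate 1 alone), S100b (65 in replicate 1 alone) and Aqp4, the astrocyte water channel, whose peaks of 46 and 16 did not overlap. Of 4 neuronal targets 3 had one, namely Cdh2 (117 and 58), Cntn2 (118 and 56) and Efnb1 (121 and 50), and Gabra6, a receptor subunit of mature cerebellar granule cells, had a peak of 24 in replicate 1 alone. Both progenitor genes known as repressed by NFI factors did, Ezh2 (139 and 80) and Hes1 (119 and 43). An open promoter says nothing here about whether a gene was transcribed, and no expression was measured.

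Each Nfi gene was finally set beside the genes most like it in 4 values, the percentile of the strongest promoter peak and of the peak density of the domain in each library. Genes without a promoter peak again ranked lowest. The nearest protein-coding genes were Ssbp1 and Enpp5 for Nfia, at distances of 2.38 and 4.41 percentile points, and Plekhf1 and Camk1 for Nfib, at 2.51 and 3.08. For Nfic they were Cnih2 and Vipr1, at 2.20 and 2.59. Nfix had the least close matches, Rras at 3.90 and Plcb3 at 5.77. None of these genes is a member of the family.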

How the data were processed

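DNase-seq peaks and hotspots of 2 midbrain libraries were used, 1 group of 2 replicates. The text deposited beside the lists derives each from the filtered alignments of 1 replicate on mm10, so peaks were called per library. Reads were aligned and peaks called with tools not given in the sources used here. The authors deposited a signal, a whole number, for each peak, which was used only within a list. For each hotspot the authors deposited the −log10 of a q value, with 100 as the highest class.

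Of 228440 and 122838 peaks, 215 and 221 off chromosomes 1 to 19, X and Y and 22 and 24 repeated positions were set aside. Regions were merged with a minimum overlap of 1 bp and assigned to a domain by their midpoint, using Python 3.11.15, pandas 2.3.3, numpy 2.4.6, scipy 1.17.1, pysam 0.24.0 and samtools 1.23.1. Gene models were GENCODE M21, and 0 intervals passed a chromosome end. Pairs of regions were aligned locally with Biopython 1.88. Overlap, merging and the motif search were checked on simulated data. Wilson intervals of 95% cover counting error only, and depth is unknown. With 1 group no test was run. The alternatives changed the overlap, signal limit, list length, window, flank, transcripts and libraries.

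Members, lists and motifs were chosen with earlier results of these data known. The text names every own promoter, the 5 leading distal regions of each domain, the 2 strongest distal peaks of each library without a partner, neighbours, list members in alphabetical order and the 2 genes most like each member. The rule for rows, the count of 3 half-sites and the alignment of regions were added after values had been seen.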

Additional observations from a re-analysis of the deposited data

How the results depend on the processing

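Of the values recomputed under the alternatives, 61 stayed near the reported ones and 17 moved. The limit for a count was wide, and a fall from 4 to 3 genes with a shared promoter region was taken as near. The 61 also include the full-site count, which was 0 in every setting, most of which could not have raised it. Leaving out 1 library, which by construction asks for 1 list only, gave 28 to 60 regions at Nfia, 74 to 103 at Nfib, 27 to 52 at Nfic and 64 to 91 at Nfix. The share of replicate 2 peaks in the domains with a replicate 1 partner (56.5%) was 44.5% with 50% reciprocal overlap, 84.91% among the stronger 50% of each list, 65.76% for hotspots, 48.8% with 10 kb flanks, 48.15% in the gene bodies and, as an alternative chosen after seeing the data, 74.1% with the rows left out. That last value lies above the genome's like share of 67.2%, whereas 56.5% lies below the genome's 64.6%. Smaller domains hold fewer regions: with 10 kb flanks 11 at Nfic and 17 at Nfix, and in the gene bodies 13 at Nfia, 9 at Nfic and 17 at Nfix. Of the 4 genes, 3 kept a shared promoter region with 50% reciprocal overlap (Nfib lost it), 3 with the rows left out (Nfib) and 3 with the 100 bp window (Nfix), and 4 did under the other alternatives. The share of overlapping peaks needs both libraries and was not run without one, and the motif count was not run for hotspots. No paired analysis was possible because the labels give a single group. Depth is unknown, so a missing replicate 2 peak cannot be told from a site below the limit of calling.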
